A study of Homo sapiens with 8 samples.

Results

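Gemcitabine, a cytidine analogue used against pancreatic cancer, has to enter the cell and be phosphorylated before it acts, and a small set of genes carries out its uptake, activation, inactivation, targeting and export. The 10 genes described here are the concentrative nucleoside transporters SLC28A1, SLC28A2 and SLC28A3, the equilibrative transporters SLC29A1 and SLC29A2, deoxycytidine kinase (DCK), cytidine deaminase (CDA), the ribonucleotide reductase subunits RRM1 and RRM2, and the efflux pump ABCC5. They were matched by name through the accession given for each probe on the array. They were measured by 14 probes of the 41000 on the array, and are 10 of the 17240 gene symbols that its accessions gave. RRM2, DCK, SLC29A2 and ABCC5 had 2 probes each and the other genes 1.

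As background, gemcitabine crosses the membrane through nucleoside transporters, of which SLC29A1 is the main equilibrative carrier in most epithelial cells, while the SLC28 proteins couple uptake to sodium. DCK adds the first phosphate, the step that commits the drug to its active forms, and CDA deaminates the drug to an inactive uridine form. The diphosphate form inhibits ribonucleotide reductase, whose large subunit RRM1 and small subunit RRM2 make deoxynucleotides for DNA synthesis, and ABCC5 exports nucleotide analogues.

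Gene expression was measured in CAPAN-2, an established human pancreatic adenocarcinoma cell line; no gemcitabine treatment is named for any sample. In the ErbB2-KD experiment, each of 4 arrays held 1 stable clone carrying a plasmid for a short hairpin RNA against ErbB2 (EV7, EV12, EV9 and EV18 on arrays 1 to 4), with the RNA pool of 4 NT clones, which carried the empty vector, in the other channel. In the MUC4-KD experiment, each of 4 arrays held RNA labelled Muc4KD, by the methods from clones made with a retroviral vector, with a pool of 4 Mock clones carrying the empty retroviral vector in the other channel. By the methods, the clones of both experiments were antibiotic-selected and isolated by limiting dilution. Each ErbB2-KD array is 1 clone. Each pool counts as 1 control sample whose own spread is not in any test. The methods state that 4 MUC4-KD clones were analysed. The labels do not name the clone on each MUC4-KD array, so n = 4 counts arrays there.

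The dyes were balanced in both experiments, with the knockdown RNA labelled with Cy5 for 2 arrays and with Cy3 for 2, and every value below is a log2 ratio of the labelled knockdown over its control pool, after normexp background correction and loess within the array. Of the probes, 56.7% to 74.2% were well above background in a channel, and none was saturated. All 6 epithelial marker genes were well enough above background to be tested, none of the fibroblast, endothelial, acinar and islet markers was, and of the 3 leukocyte markers on the array CD14 alone was. Array 4 of MUC4-KD stood apart from the other 3 of its experiment, with correlations across probes of 0.33 to 0.54 against 0.68 to 0.83 among those 3, and array 2 of ErbB2-KD correlated at 0.20 to 0.39 with the others of its experiment. ERBB2 in ErbB2-KD was -0.58, -0.32, -0.33 and -0.38 on arrays 1 to 4 by its brighter probe, a mean of -0.40 ± 0.12 (SD, n = 4), with an adjusted p of 0.145 by limma, and the mean of its other probe was 0.04. MUC4 was higher, not lower, in the RNA labelled MUC4-KD. Its 4 probes had means of 0.27, 0.41, 1.34 and 1.84, and the last 2 passed the test (adjusted p = 0.0355 and 0.00804 by limma). This goes against the label, and the study's own list of genes for this experiment runs in the opposite direction. The study also measured MUC4 by other assays and the cell cycle by flow cytometry in such clones, which were not analysed here. The groups are therefore called RNA labelled MUC4-KD and RNA labelled Mock, and every sign given for them would turn if the labels were exchanged.

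The promoters of the 4 genes that passed the test in the RNA labelled MUC4-KD, RRM2, RRM1, DCK and CDA, are shown so that their letters can be read. The windows run from 250 bases before to 50 after the gene's start. They are RefSeq sequences of build GRCh38.p14, all on the plus strand, and 7 of the 10 genes were in that table, which holds no window for SLC28A2, SLC28A3 and SLC29A2. The capitals mark, on either strand, the CCAAT box (CCAAT), the GC box (GGGCGG), the TATA box (TATAAA) and 4 spellings of an E2F-type site (TTTCGCGC, TTTGGCGC, TTTCCCGC and TTTGCCGC).
RRM2, chr2:10122489-10122788: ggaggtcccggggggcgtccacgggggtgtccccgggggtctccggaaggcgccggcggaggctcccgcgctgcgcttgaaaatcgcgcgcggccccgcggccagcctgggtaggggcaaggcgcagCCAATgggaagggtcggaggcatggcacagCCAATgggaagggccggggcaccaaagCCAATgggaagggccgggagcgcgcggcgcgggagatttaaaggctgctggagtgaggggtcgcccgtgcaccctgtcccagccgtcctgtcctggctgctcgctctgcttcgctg
RRM1, chr11:4094435-4094734: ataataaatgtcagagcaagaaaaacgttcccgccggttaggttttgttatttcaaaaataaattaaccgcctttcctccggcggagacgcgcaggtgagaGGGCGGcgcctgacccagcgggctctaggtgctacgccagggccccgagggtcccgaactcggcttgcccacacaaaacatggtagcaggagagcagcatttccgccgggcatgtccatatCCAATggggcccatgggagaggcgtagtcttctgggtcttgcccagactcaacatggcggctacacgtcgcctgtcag
DCK, chr4:70993399-70993698: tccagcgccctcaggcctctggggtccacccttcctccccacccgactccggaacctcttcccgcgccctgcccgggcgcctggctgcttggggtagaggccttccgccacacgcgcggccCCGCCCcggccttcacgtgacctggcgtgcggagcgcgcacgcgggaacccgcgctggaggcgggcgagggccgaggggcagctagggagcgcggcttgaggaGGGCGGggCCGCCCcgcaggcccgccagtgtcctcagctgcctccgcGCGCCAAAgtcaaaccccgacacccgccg
CDA, chr1:20588847-20589146: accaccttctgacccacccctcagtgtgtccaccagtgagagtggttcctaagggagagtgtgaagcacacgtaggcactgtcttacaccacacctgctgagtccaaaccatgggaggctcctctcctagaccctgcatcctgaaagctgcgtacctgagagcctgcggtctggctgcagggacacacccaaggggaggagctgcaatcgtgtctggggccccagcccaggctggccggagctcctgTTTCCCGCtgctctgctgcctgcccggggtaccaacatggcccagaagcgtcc
The RRM2 window held CCAAT 3 times, starting 123, 93 and 66 bases before the gene's start. RRM1 held CCAAT once, 28 bases before the start, and GGGCGG once. DCK held GGGCGG 3 times and TTTGGCGC once on the opposite strand, and CDA held TTTCCCGC once, beginning 3 bases before the start. No marked motif overlapped another. Of all 35116 promoters of that length, 34.6% held CCAAT, 45.0% held GGGCGG, 11.5% held TATAAA and 3.31% held any of the 4 E2F-type spellings. RRM2 has a second window in the table, starting upstream of the one shown, with 1 CCAAT and 1 GGGCGG. No motif was shared by the 4 windows shown.

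The concentrative transporters, which pull nucleosides into the cell against a gradient, were dim, and most of their spots were not well above background. SLC28A2, a purine-preferring carrier, was well above background on 0 of 4 arrays in either channel of both experiments, with a signal of 1.15 to 5.15 times local background in ErbB2-KD and 1.17 to 2.00 times in MUC4-KD. SLC28A1, the pyrimidine carrier, was well above background in 2 of the 4 ErbB2-KD clones and in the NT pool on 1 array, and nowhere in the MUC4-KD experiment. Its signal over background in the ErbB2-KD clones was 3.51, 20.0, 1.52 and 1.64 on arrays 1 to 4. On array 2 the NT pool was also at its highest, 6.22, and the log2 ratio of SLC28A1 was 0.18. Untested markers of other cell types read high in the clone channel of that array too. Probes of the fibroblast marker COL3A1 were at 39.2, 7.57 and 4.82 and the acinar marker CPA1 at 12.2. The 20.0 is thus not particular to SLC28A1. SLC28A3, the broadly selective carrier, was well above background in 3 of 4 ErbB2-KD clones and on 3 of 4 arrays in the NT pool, and in 1 of 4 of each kind in the MUC4-KD experiment. Its log2 ratio in ErbB2-KD was 0.56, -0.07, -0.07 and 0.67, so that 2 clones lay above the pool and 2 at its level. The log2 ratios that the Feature Extraction software had computed were larger for the higher 2 clones, at 1.38, 0, -0.16 and 2.43 on arrays 1 to 4. None of the 3 was tested, because none passed the background filter on all 4 arrays of a channel.

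**Figure D1:**
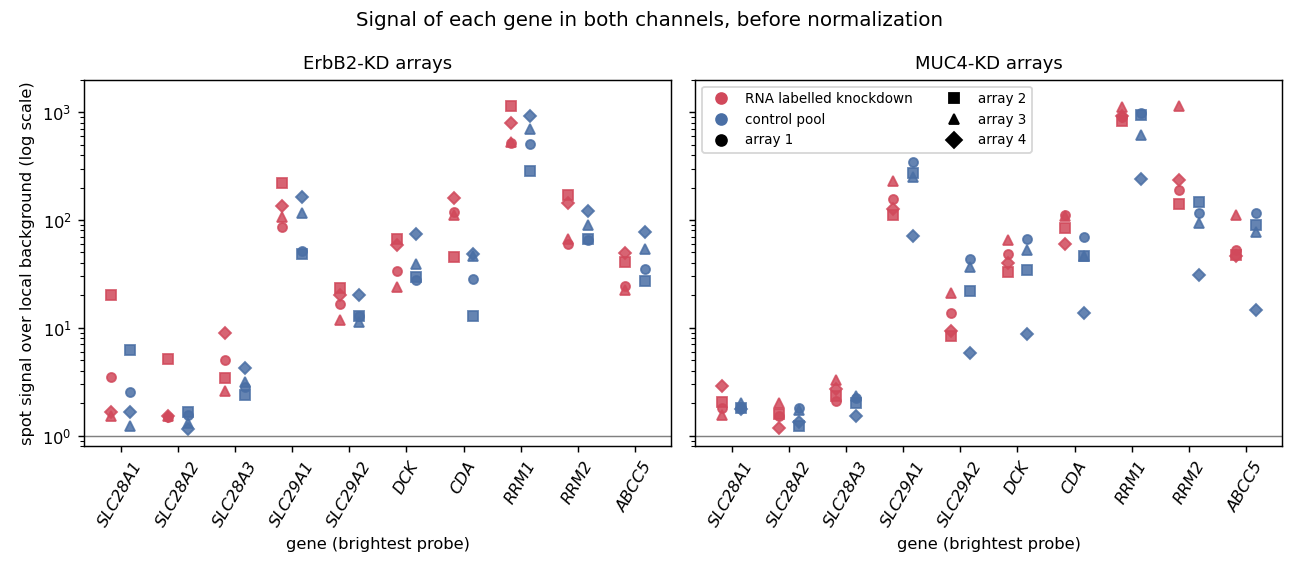
Spot signal over local background (log scale, as scanned) of the brightest probe of each gene, in the RNA labelled as knockdown (red) and in the control pool (blue), 1 symbol per array, with a line at a ratio of 1. SLC28A2 sits near background, SLC28A1 reaches 20.0 in clone EV12 and SLC28A3 8.94 in clone EV18, and the Mock pool is dimmest on array 4 for the 7 tested genes.

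The other 7 genes were tested in both experiments, through 11 probes. In ErbB2-KD, 0 of the 11 probes passed an adjusted p of 0.05 in limma, where 342 of 23869 probes tested (1.43%) did so, and 3 had an unadjusted p under 0.05 (CDA, SLC29A1 and ABCC5), as had 18.0% of all probes tested. A single fit over all 8 arrays called 2 of the 11, CDA and SLC29A1, and the methods' t-test after adjustment called 0. On the 4 MUC4-KD arrays as labelled, 4 of the 11 probes passed, of CDA, RRM2, RRM1 and DCK, all higher, and 0 passed lower. There 5131 of 25047 probes tested (20.5%) were called, 12.0% higher and 8.48% lower. With arrays centred on their median in place of loess, 0 of the 11 passed. Without array 3 none passed, without array 1 RRM2 alone and without array 2 RRM1 and RRM2, while 6 passed without array 4. The median log2 ratio over the 11 probes was 0.01 in ErbB2-KD and 0.15 in the RNA labelled MUC4-KD, beside -0.01 and 0.01 over all probes tested.

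**Figure D2:**
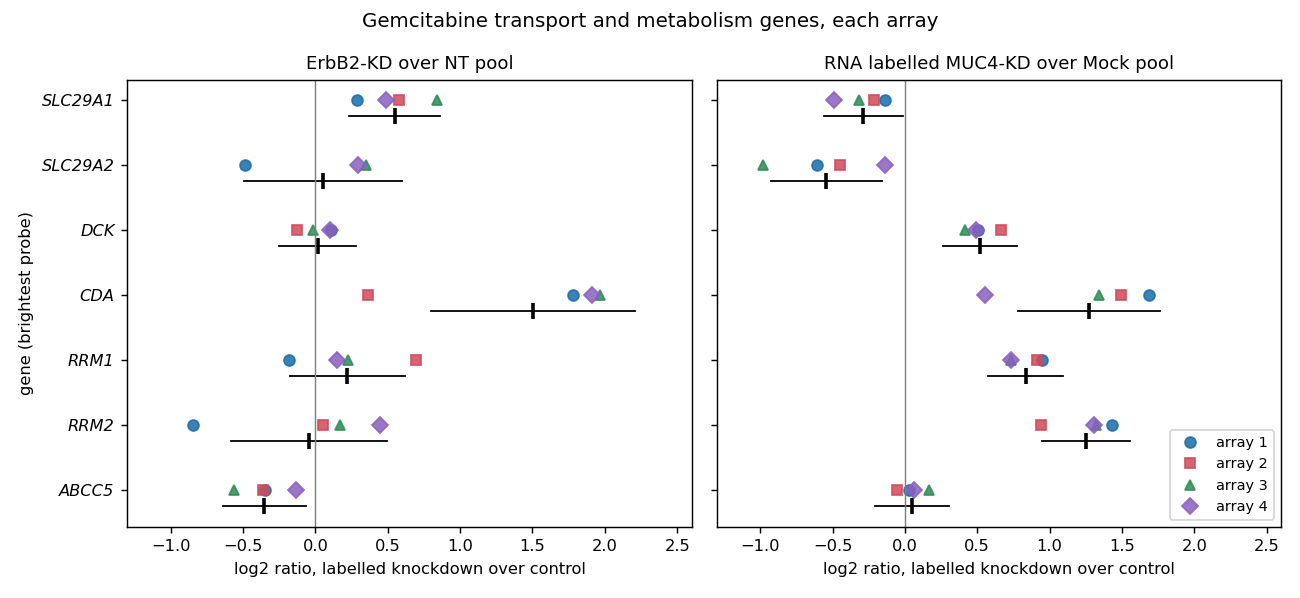
Log2 ratio of the labelled knockdown over its control pool on each of the 4 arrays of both experiments (symbols), for the brightest probe of the 7 tested genes, with the mean and its 95% confidence interval from limma below (black). CDA lies above 0 on 8 of 8 arrays, and RRM2 lies between 0.94 and 1.43 in the RNA labelled MUC4-KD against -0.84 to 0.45 in ErbB2-KD.

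SLC29A1, the main equilibrative carrier, was 0.29, 0.58, 0.84 and 0.49 in ErbB2-KD, on arrays 1 to 4. Over the Mock pool, the RNA labelled MUC4-KD gave -0.13, -0.21, -0.31 and -0.49. The ErbB2-KD clones lay above their pool on 4 of 4 arrays and the RNA labelled MUC4-KD lay below its pool on 4 of 4, and the groups did not overlap. With the MUC4-KD labels exchanged both would lie above their pools and overlap. How many of all probes separate the groups as SLC29A1 does, or as DCK, RRM1 and RRM2 do below, was not counted. For 28.5% of all probes tested, the difference between the experiments had an unadjusted p under 0.05 by limma. The means were 0.55 ± 0.23 (SD, n = 4, 1.46-fold) and -0.29 ± 0.15 (SD, n = 4), and neither passed its own test (limma adjusted p = 0.114 and 0.112). The 95% confidence interval was 0.23 to 0.86 in ErbB2-KD and -0.56 to -0.01 against the Mock pool. As the arrays measure bulk RNA, fewer cells expressing a gene and less RNA per cell cannot be told apart.

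SLC29A2, the second equilibrative carrier, was -0.49, 0.35 and 0.30 on arrays 1, 3 and 4 of ErbB2-KD by its brighter probe. Its spot on array 2 was an outlier on the array and was left out, so this value rests on 3 arrays. The RNA labelled MUC4-KD gave -0.61, -0.45, -0.98 and -0.14, below the pool on 4 of 4 arrays. The mean of -0.54 ± 0.35 (SD, n = 4) did not pass (limma adjusted p = 0.0574), and the other probe had a mean of -0.09 ± 0.30 (SD, n = 4). The brighter probe thus lay below the other on these arrays.

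DCK, which phosphorylates gemcitabine first, was at the level of its pool in ErbB2-KD and higher in the RNA labelled MUC4-KD. Its brighter probe was 0.11, -0.13, -0.02 and 0.10 in ErbB2-KD, with a mean of 0.02 ± 0.11 (SD, n = 4) and a 95% confidence interval of -0.25 to 0.28. The RNA labelled MUC4-KD gave 0.51, 0.67, 0.41 and 0.49. These 4 arrays lay above all 4 ErbB2-KD arrays. The mean of 0.52 ± 0.11 (SD, n = 4), a 1.43-fold difference, passed the test (limma adjusted p = 0.0266). It did not pass with arrays 1 and 3 and arrays 2 and 4 averaged (limma adjusted p = 0.0672) or without array 1, 2 or 3. The other probe, much dimmer, was 0.46, 0.37, 0.35 and 0.23 there, averaging 0.35 ± 0.09 (SD, n = 4), which did not pass (limma adjusted p = 0.0597).

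CDA, which inactivates the drug, had the largest mean log2 ratio of the 7 tested genes in ErbB2-KD and was higher in the RNA labelled MUC4-KD. In ErbB2-KD it was 1.78, 0.36, 1.97 and 1.91 on arrays 1 to 4. Clone EV12 on array 2 lay far below the other 3 clones, which were close together. The signal over background was 119, 45.3, 111 and 161 in the clones and 28.5, 12.8, 46.6 and 48.3 in the NT pool. The mean was 1.50 ± 0.77 (SD, n = 4, 2.84-fold), with a 95% confidence interval of 0.80 to 2.21, and did not pass the test (limma adjusted p = 0.0711). Without array 2 the mean was 1.88 and passed (limma adjusted p = 0.0103).

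Over the Mock pool, CDA was 1.69, 1.50, 1.34 and 0.55. Array 4, which stood apart from the other 3 across all probes, was the lowest. The mean of 1.27 ± 0.50 (SD, n = 4, 2.41-fold) passed the test (limma adjusted p = 0.0150), and was 1.51 without array 4. CDA was thus above the control pool on 8 of 8 arrays as labelled. With the MUC4-KD labels exchanged it would lie above the pool on 4 arrays and below it on 4.

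RRM1, the large subunit of ribonucleotide reductase, was -0.18, 0.69, 0.23 and 0.15 in ErbB2-KD. The mean was 0.22 ± 0.36 (SD, n = 4) and its 95% confidence interval, -0.18 to 0.62, held 0. The 4 arrays with RNA labelled MUC4-KD were at 0.95, 0.92, 0.73 and 0.73. All 4 of these values lay above all 4 ErbB2-KD values. The mean, 0.83 ± 0.12 (SD, n = 4), a 1.78-fold difference, passed the test (limma adjusted p = 0.00905).

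RRM2, the small subunit, whose promoter with 3 CCAAT boxes is shown above, was -0.84, 0.05, 0.17 and 0.45 in ErbB2-KD by its brighter probe. Clone EV7 on array 1 was the lowest and the mean was -0.04 ± 0.56 (SD, n = 4). The same probe was 1.43, 0.94, 1.32 and 1.30 on the arrays with RNA labelled MUC4-KD. The groups did not overlap, and the mean of 1.25 ± 0.21 (SD, n = 4, 2.38-fold) had the smallest adjusted p of the 11 probes (limma adjusted p = 0.00521). On array 3 of that experiment the signal was 1137 times background, because the local background was 5 there against 18 to 27.5 on the other 3 arrays.

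The other RRM2 probe did not follow the brighter one. It was -0.25, -0.45, 0.41 and 0.88 in the RNA labelled MUC4-KD, below 0 on the 2 arrays with that RNA in Cy3 and above 0 on the 2 with it in Cy5. Its mean was 0.15 ± 0.61 (SD, n = 4, limma adjusted p = 0.670). In ErbB2-KD it was -0.54, 1.28, -0.49 and -0.21, and clone EV12 was the only one above its pool. Averaged over both probes, RRM2 still passed in the RNA labelled MUC4-KD, with a mean of 0.70.

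**Figure D3:**
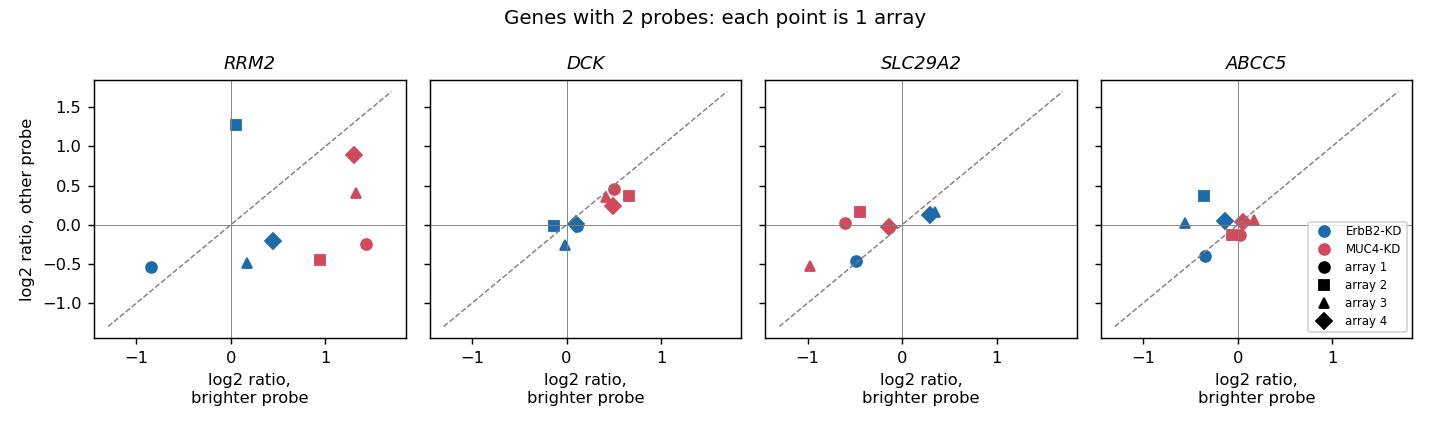
Log2 ratio by the other probe against that by the brighter probe for the 4 genes with 2 probes, 1 point per array, with ErbB2-KD in blue, MUC4-KD as labelled in red and the line of equal values dashed. The DCK points lie near the line, whereas for RRM2 the other probe is at -0.45 to 0.88 where the brighter is at 0.94 to 1.43.

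ABCC5, which exports nucleotide analogues, was -0.35, -0.36, -0.56 and -0.14 in ErbB2-KD by its brighter probe. All 4 clones lay below their pool, with a mean of -0.35 ± 0.17 (SD, n = 4) that did not pass the test (limma adjusted p = 0.203). The RNA labelled MUC4-KD gave 0.03, -0.06, 0.17 and 0.06, around its pool, with a 95% confidence interval of -0.20 to 0.30. The other, dimmer probe had means of 0.01 and -0.05.

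The log ratios that the Feature Extraction software had computed were turned the same way. For CDA they averaged 1.68 in ErbB2-KD and 1.36 in the RNA labelled MUC4-KD, and for SLC29A1 0.58 and -0.36. Against the Mock pool they averaged 1.26 for RRM2, 0.84 for RRM1 and 0.61 for DCK. SLC29A2 averaged -0.86 there and passed the test with these ratios (limma adjusted p = 0.0140).

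The experiments were compared with each other through the difference of their mean log2 ratios over 8 arrays, MUC4-KD minus ErbB2-KD as labelled, which also holds the difference between the pools. Of the 11 probes, 3 passed, of SLC29A1, RRM2 and DCK, where 2559 of 25835 probes tested (9.91%) did so. For SLC29A1 the difference was -0.84 (95% confidence interval -1.20 to -0.47, limma adjusted p = 0.0183). For RRM2 it was 1.29 (0.69 to 1.90, limma adjusted p = 0.0226), and for DCK 0.50 (0.20 to 0.81, limma adjusted p = 0.0482). The DCK difference did not pass with the smaller normexp offset (limma adjusted p = 0.0768) or with the Feature Extraction ratios (0.0823), and of the 8 fits that each left out 1 array it passed in 1, that without array 4 of MUC4-KD. RRM1 differed by 0.61 and ABCC5 by 0.40, neither past the threshold (limma adjusted p = 0.0760 and 0.106). With median centring, or without array 3 of MUC4-KD, 0 of the 11 passed, and without array 1 of MUC4-KD SLC29A1 alone did. CDA, with a difference of -0.23 and an interval of -1.10 to 0.64, was not resolved.

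Each of the 3 slides held arrays of both experiments. Within slides 1, 2 and 3 the difference was -0.78, -1.07 and -0.71 for SLC29A1, 1.28, 1.25 and 0.93 for RRM2, and 0.62, 0.62 and 0.36 for DCK. The groups did not overlap for these genes, so the sign had to be the same on all 3 slides and is no separate support. RRM1 differed by 0.89, 0.04 and 0.70, so that slide 2, which held clone EV12 and array 4 of MUC4-KD, showed almost none of it. With the sign of the MUC4-KD ratios turned, as exchanged labels would require, CDA (-2.77), RRM2 (-1.21), RRM1 (-1.05) and DCK (-0.53) passed the test and SLC29A1 (-0.26) did not.

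**Figure D4:**
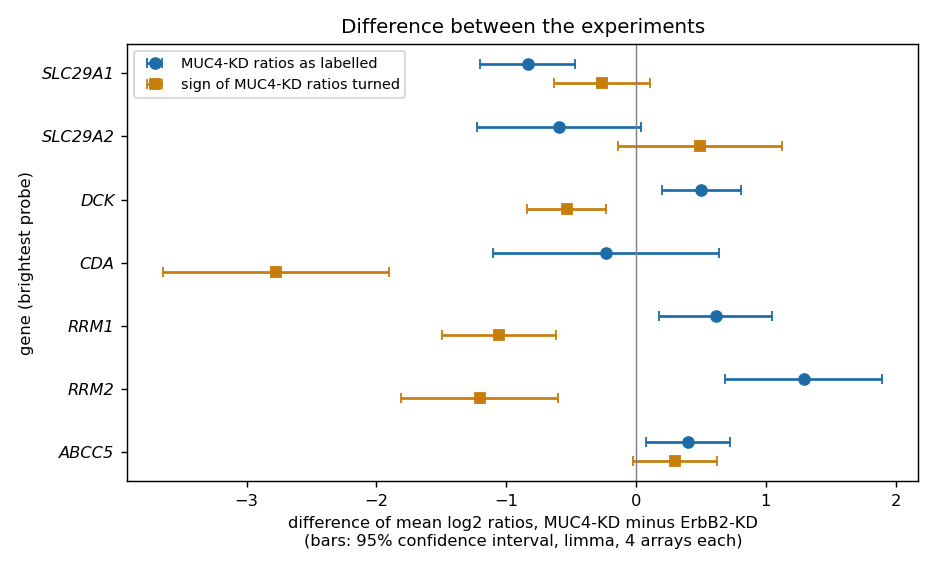
Difference of the mean log2 ratios, MUC4-KD minus ErbB2-KD, for the 7 tested genes with its 95% confidence interval from limma, with the MUC4-KD ratios as labelled (blue circles) and with their sign turned (orange squares). As labelled, RRM2 differs by 1.29 and SLC29A1 by -0.84; with the sign turned, CDA has the largest difference, -2.77.

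Because ribonucleotide reductase is made in dividing cells, lists of S phase and G2/M genes were read beside RRM1 and RRM2. On the ErbB2-KD arrays the median of the 20 S phase probes was -0.67, 0.64, -0.18 and -0.08, and that of the 17 G2/M probes -0.43, 0.49, 0.46 and 0.24. Clone EV7 on array 1 was thus the lowest for both lists and for RRM1 and RRM2, and clone EV12 on array 2 the highest for both lists, for RRM1 and for the dimmer RRM2 probe. No probe of either list passed the test in ErbB2-KD. There 3 of the 20 S phase and 2 of the 17 G2/M probes had an unadjusted p under 0.05 by limma, beside 18.0% of all probes tested. The part of the cell cycle in the values of RRM1 and RRM2 was not tested.

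Over all probes tested on the MUC4-KD arrays as labelled, 12.0% passed higher and 8.48% lower. Of the 17 G2/M probes, 14 passed higher and none lower, and all 17 lay above 0. The median over the list was 0.90, and 0.86, 0.76, 1.11 and 0.59 on arrays 1 to 4. CDK1, the mitotic kinase, was 1.42 ± 0.20 (SD, n = 4, limma adjusted p = 0.00364), and TOP2A, a topoisomerase of dividing cells, was 1.34 ± 0.90 (SD, n = 4, limma adjusted p = 0.0406). Of the 20 S phase probes, 2 passed higher, of POLA1 and RFC4, and 4 passed lower, of the helicase subunits MCM2, MCM3, MCM5 and MCM7. With calls left aside, 10 of the 20 lay above 0 and 10 below. The median of the S phase list was 0.00, and -0.04 to 0.02 on single arrays. RRM1, RRM2 and the G2/M list were thus above 0 on all 4 arrays of this experiment and the S phase list at 0. The G2/M count fell to 1 of 17 without array 3, to 4 without array 1 and to 6 without array 2, and was 15 without array 4, while the median stayed at 0.83 to 0.88. The S phase calls fell to 0 without array 1, 2 or 3, and were 4 higher and 5 lower without array 4. Exchanged labels would turn each of these signs.

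**Figure D5:**
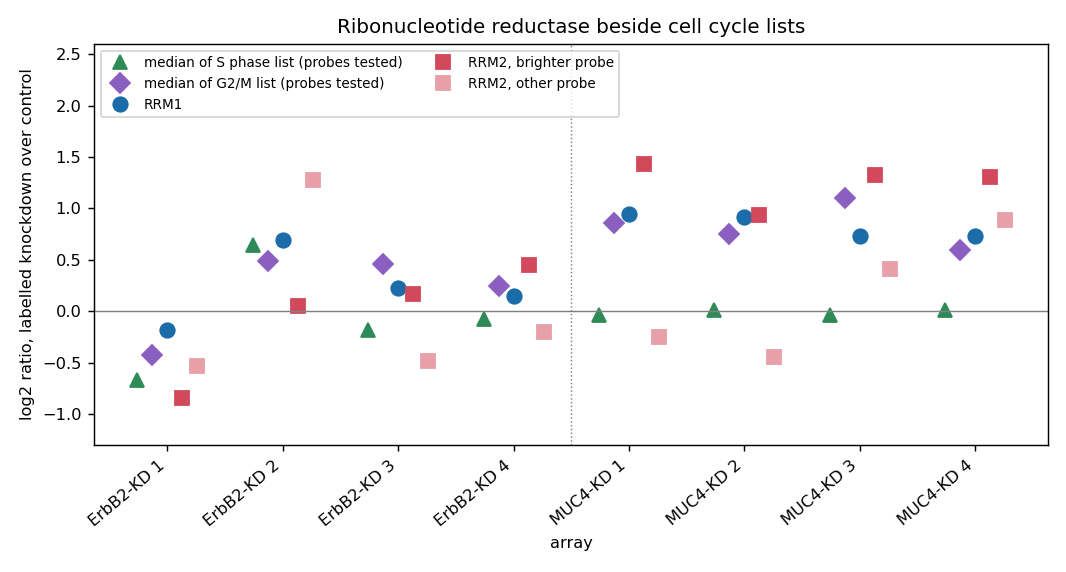
Log2 ratio of RRM1 and of both RRM2 probes on each of the 8 arrays, beside the median over the probes tested of the S phase and G2/M lists (points set side by side within an array). The G2/M median is 0.59 to 1.11 on the MUC4-KD arrays as labelled, where the S phase median is at -0.04 to 0.02.

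A wider list of 40 genes of nucleoside transport, phosphorylation, breakdown, synthesis and efflux was read beside these genes. In ErbB2-KD, where 1.43% of all probes tested passed, 1 of its 53 tested probes (1.89%) did so and was lower. It belonged to TYMP, thymidine phosphorylase, at -1.74, -1.44, -1.91 and -1.93, averaging -1.76 ± 0.23 (SD, n = 4, limma adjusted p = 0.0106). The other TYMP probe tested averaged -0.02 ± 0.12 (SD, n = 4, limma adjusted p = 0.946). Without array 1, 3 or 4 none of the 53 passed. The median of the list was -0.04. Against the Mock pool, 20 of 50 tested probes passed, 6 higher and 14 lower. Of all probes tested 20.5% passed there, 12.0% higher and 8.48% lower. The median of the list there was -0.14. Without array 3 none of the 50 passed, and without array 4 there were 7 higher and 20 lower. Without array 1 there was 1 higher and 0 lower, and without array 2 there were 2 higher and 1 lower.

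Among the MUC4-KD arrays as labelled, 4 of 14 catabolism probes passed lower and 1 higher, with 12 below 0 and 2 above. Of 17 kinase probes 6 passed lower and 0 higher, with 9 below 0 and 8 above. Over all probes tested, 8.48% passed lower and 12.0% higher. Of the nucleotidases, NT5M was -1.45 ± 0.96 and NT5C3A, which dephosphorylates pyrimidine monophosphates, -1.25 ± 0.51 (SD, n = 4). NT5M was -2.17 and -2.37 on arrays 1 and 3 and -0.74 and -0.51 on arrays 2 and 4, so the arrays fell into a low and a less low pair. PNP, purine nucleoside phosphorylase, was -0.81 ± 0.38 (SD, n = 4).

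Among the 13 synthesis probes 4 passed higher and 2 passed lower. TYMS, thymidylate synthase, was 0.69, 0.66, 1.19 and 1.17, averaging 0.93 ± 0.30 (SD, n = 4, limma adjusted p = 0.0141). CTPS1, which makes CTP, was lower at -0.92 ± 0.25 (SD, n = 4). Among the efflux pumps, ABCC3 was 1.83, 1.88, 1.66 and 0.42, averaging 1.45 ± 0.69 (SD, n = 4, limma adjusted p = 0.0204), with array 4 the lowest as for CDA.

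As labelled, RRM2 had the widest range of the tested genes over the 8 arrays, 2.28. With the sign of the MUC4-KD ratios turned CDA had the widest, 3.65, and RRM2 had 1.88. Correlation to RRM2 as labelled was computed for 22995 probes tested in both experiments and measured on 8 arrays. The 5 genes with the highest Pearson r to RRM2 were CHORDC1 (r = 0.98), PYROXD2 (0.97), SIRPA (0.97), PODXL (0.96) and MYH9 (0.96). The 8 points form 2 sets of 4 arrays that share a pool, so r also holds the gap between the experiments. Within ErbB2-KD, all 5 genes were lowest on array 1, as RRM2 was, with CHORDC1 at -0.57, 0.32, 0.46 and 0.39 on arrays 1 to 4. The part of the gap and of single arrays in r was not tested. With the sign turned, r to RRM2 was 0.98 for CHORDC1 and 0.96 for PODXL but -0.58 for PYROXD2, -0.52 for SIRPA and -0.48 for MYH9. The 5 genes most like CDA were then ECI2, DONSON, ZNF561, MAGEA6 and SALL4, with r of 0.99 each. PODXL, a sialomucin of the cell surface, was -0.83 to 0.47 in ErbB2-KD and 1.11 to 1.61 in the RNA labelled MUC4-KD. MYH9, the heavy chain of non-muscle myosin, was -1.98 to -0.92 and 0.03 to 0.46.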

How the data were processed

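Two-colour 44K arrays of CAPAN-2 RNA were compared within each array. The authors labelled cRNA with Cy3 and Cy5, scanned the arrays and deposited the files of Feature Extraction 10.5.1.1, with the median spot and background intensity of each channel, flags for background, saturation and outliers, and log10 ratios of Cy5 over Cy3. A deposited table of log10 ratios equals these, turned to labelled knockdown over control, within 5e-06. Conditions and dyes came from the labels.

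The analysis used limma 3.58.1 under R 4.3.3. Background was corrected by normexp (offset 50), outlier spots were left out, arrays were normalized by loess, spots of a probe were averaged and signs were turned to labelled knockdown over control. A probe was tested if well above background on all 4 arrays in either channel. The mean log2 ratio was tested against 0, and the difference between experiments over 8 arrays, by lmFit and eBayes with Benjamini-Hochberg adjustment over all probes tested (threshold 0.05). P-values measure the spread between arrays. Precision is limited by having 4 arrays a group: the median SD between arrays was 0.299 for ErbB2-KD and 0.284 for MUC4-KD. Each fit was tested on simulated data.

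Accessions gave symbols to 25398 of 41000 probes. The value of a gene is that of its brightest probe. The text names all members, at most 8 genes of the nucleotide list per experiment by size among those past the threshold whose 4 arrays had one sign, the 5 symbols most like the member of widest range, and examples of the cell cycle lists chosen after their values were seen; some genes that this rule picks are not reported here. Members and lists were chosen with earlier results of these data known. Alternatives tried were median centring, the deposited log ratios, a smaller normexp offset (10), 2 other filters, a dye term, slide as a random block (its correlation of 0.016 estimated over 8 arrays), an intensity trend, 1 fit over 8 arrays, the methods' t-test, averaged probes, averaged MUC4-KD arrays, a block on the replicate number, and each array left out in turn; the turned MUC4-KD sign, in the difference and in the likeness of genes, and the lists without each array were added after seeing the data. Promoter sequences came from a RefSeq table of build GRCh38.p14, and no probe was mapped to a genome.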

Additional observations from a re-analysis of the deposited data

Results flagged for a closer look

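CDA on array 2 of ErbB2-KD (clone EV12) stood apart from the other clones of its group, with a log2 ratio of 0.36 against 1.78, 1.91 and 1.97. The dimmer DCK probe on array 3 of ErbB2-KD, -0.26, stood apart from values of -0.02, -0.02 and 0.01. These came from 21 groups of 4 arrays examined for such a gap, of which chance flags about 1 in 20.

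As labelled, 3 genes differed between the experiments by limma's test of the difference itself: SLC29A1 by -0.84, DCK by 0.50 and RRM2 by 1.29 on the log2 scale, MUC4-KD minus ErbB2-KD. The DCK difference passed in 1 of 8 fits that each left out 1 array. With the sign of the MUC4-KD ratios turned, SLC29A1 no longer passed and DCK and RRM2 changed sign. The part of the labels and of the different control pools in these differences was not tested.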

How the results depend on the processing

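In ErbB2-KD, 0 of the 11 probes passed, against 2 with 1 fit over 8 arrays, 1 by the methods' t-test at 2-fold and an unadjusted p under 0.05, 3 at an unadjusted p under 0.05 (18.0% of all probes tested), and 0 to 1 when each array was left out. In the RNA labelled MUC4-KD, 4 passed, against 0 with median centring, 0 by the methods' t-test after adjustment and 2 at its 2-fold threshold, 7 at an unadjusted p under 0.05 (40.2% of all), and 0 to 6 when each array was left out. For the difference, 3 passed, against 0 with median centring, 6 at an unadjusted p under 0.05 (28.5% of all) and 0 to 3 when each array was left out. With the replicate number as a block, 0 passed. Same-numbered arrays deviated from their group means with correlations of -0.12, -0.24, -0.05 and -0.13, so the numbers did not pair the samples. The other alternatives stayed within 1.5 times these counts. Over all probes tested, the calls in ErbB2-KD went from 342 to 31 with median centring, 50 with no filter, 190 with a dye term, 0 with the intensity trend, 0 by the methods' t-test after adjustment, 1121 with 1 fit over 8 arrays, and 0 to 487 when each array was left out. In the RNA labelled MUC4-KD they went from 5131 to 1 with median centring, 2930 with no filter, 2754 with the intensity trend, 2979 symbols with averaged probes, 106 by the methods' t-test after adjustment, and 154 to 9347 when each array was left out. For the difference they went from 2559 to 117 with median centring, 1734 with no filter, 4076 with the log ratios of Feature Extraction, 584 with the replicate block, 4433 with the turned sign, and 638 to 5060 when each array was left out. Values near 0 changed sign. SLC29A2 in ErbB2-KD was -0.078 with median centring, -0.083 with a dye term, -0.11 with probes averaged and -0.10 to 0.32 when each array was left out. DCK in ErbB2-KD was -0.034 with median centring, -0.028 with probes averaged and -0.015 to 0.064 when each array was left out. When each array was left out, RRM2 in ErbB2-KD was -0.21 to 0.22 and the CDA difference -0.61 to 0.0056. With the Feature Extraction ratios, ABCC5 in the RNA labelled MUC4-KD was -0.028. With the sign of the MUC4-KD ratios turned, chosen after seeing the data, the difference was 0.49 for SLC29A2, -0.53 for DCK, -1.05 for RRM1 and -1.21 for RRM2, and 4 probes passed. The cause of these changes was not tested. CDA, RRM1, RRM2 and DCK kept their direction in the RNA labelled MUC4-KD under every alternative run. No SLC28 probe passed the background filter, and with no filter none was called.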
